A study of Mus musculus with 12 samples.

Results

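RNA bound to the ribosomes of SF1 cells was compared with RNA of the whole dissected tissue that held the ventromedial nucleus (VMN) of the mouse hypothalamus, in control animals. That tissue also gave RNA of genes of neighbouring nuclei, such as Pmch and Ghrh, as described below. The comparison used 6 of the 12 libraries of the study: the 3 output libraries made from pulled-down ribosomes and the 3 input libraries made from the tissue they came from, joined by the number of the pool of animals. Each pool held 6 animals and gave 1 input and 1 output library. The other 6 libraries are the same kinds of sample from animals with a dominant-negative form of AMPK (DN), and they are used here only to set values beside those of the control animals (CTRL). All mice ate regular chow and were sampled after a night without food. All of them had been injected in the VMN with an adeno-associated virus for ribosomal protein L10 fused to GFP. The DN animals are recorded as carrying the dominant-negative AMPK mutant and the CTRL animals as lacking it, although the treatment text of both names that virus, and the recorded characteristics were followed. The sources used here do not give the Cre line, strain, age or sex of the animals.

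SF1, encoded by Nr5a1, is a nuclear receptor that marks many excitatory neurons of the VMN, and these neurons take part in the control of energy expenditure, glucose and defensive behaviour. In translating ribosome affinity purification (TRAP), a tagged ribosomal protein is made in chosen cells, the tagged ribosomes are captured with an antibody to the tag, and the RNA on them is sequenced. A gene with more of its RNA in outputs than in inputs is said to be enriched, while RNA of cells without the tag, and RNA that is not on cytosolic ribosomes, is expected at lower levels in outputs.

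CTRL libraries held 34.6 to 45.1 M counts on genes. Genes of the mitochondrial genome made up 74.9% to 77.0% of these in inputs and 17.9% to 24.8% in outputs, which left 8.5 to 11.0 M counts on nuclear genes in inputs and 26.2 to 30.1 M in outputs. Levels are given as normalized CPM, counts scaled to the size of the library, and fold changes as the log2 of output over input with a standard error (SE), from a model with the pool as a block. With a threshold of 0.05 on the adjusted p of edgeR's quasi-likelihood test, 527 of 13456 genes (3.92%) differed, 272 higher (2.02%) and 255 lower (1.90%) in outputs. Outputs and inputs did not overlap in 3133 genes (23.3%). The median log2 fold change of all genes tested was -0.02. Counts of higher and lower genes in the lists that follow are those of edgeR unless another tool is named, and a gene that did not pass is not thereby shown to be unchanged. Each count is to be read beside the shares of all genes tested, 2.02% higher and 1.90% lower. Of the most abundant 25% of genes 11.2% were called, and the part of abundance in the list counts was not tested. Prkaa1 and Prkaa2, which encode the catalytic subunits of AMPK, did not pass, at -0.22 (95% interval -0.78 to 0.33, adjusted p = 0.730) and 0.28 (-0.20 to 0.76, adjusted p = 0.577). Without the block 431 genes passed, and 400 genes passed in both fits. Pool 1 weighed most: without it 211 genes passed, 188 of them among the 527. DESeq2 called 1629 genes, which included all 527. Pool 3 stood apart in immune genes, as described with those genes.

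The markers of SF1 neurons were all higher in outputs. Fezf1, a transcription factor needed to form the VMN (chr6:23245044-23248362, GRCm38, minus strand), had 13.4, 17.8 and 20.3 CPM in the inputs of pools 1, 2 and 3 and 158.7, 176.0 and 169.1 CPM in the outputs. The 3 outputs lay close together and far above every input, a log2 fold change of 3.28 ± 0.21 (SE, 3 pools, adjusted p = 6.21e-06). Nr5a1 itself (chr2:38692656-38714542, minus strand) had 1.94, 2.95 and 1.29 CPM in inputs and 36.4, 19.4 and 12.6 CPM in outputs. The groups did not overlap, but the outputs of pools 1 and 3 were far apart, and the rise of 3.38 ± 0.51 (adjusted p = 0.00460) did not pass without pool 1 (adjusted p = 0.0687). Slc17a6, the vesicular glutamate transporter of these neurons (chr7:51622006-51671119, plus strand), went from 268.6, 320.8 and 265.9 CPM to 694.4, 614.1 and 699.0 CPM. All outputs were above all inputs (1.20 ± 0.14, adjusted p = 9.54e-04). Gda, which encodes guanine deaminase (chr19:21391307-21473445, minus strand), went from 77.8, 69.2 and 48.4 CPM to 288.8, 188.7 and 213.0 CPM (1.80 ± 0.18, adjusted p = 3.28e-04), again without overlap. Per kb of exon, the output level was 123.9 CPM for Slc17a6, 69.7 for Fezf1, 36.9 for Gda and 5.37 for Nr5a1, so the most abundant marker was not the most enriched one.

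**Figure D1:**
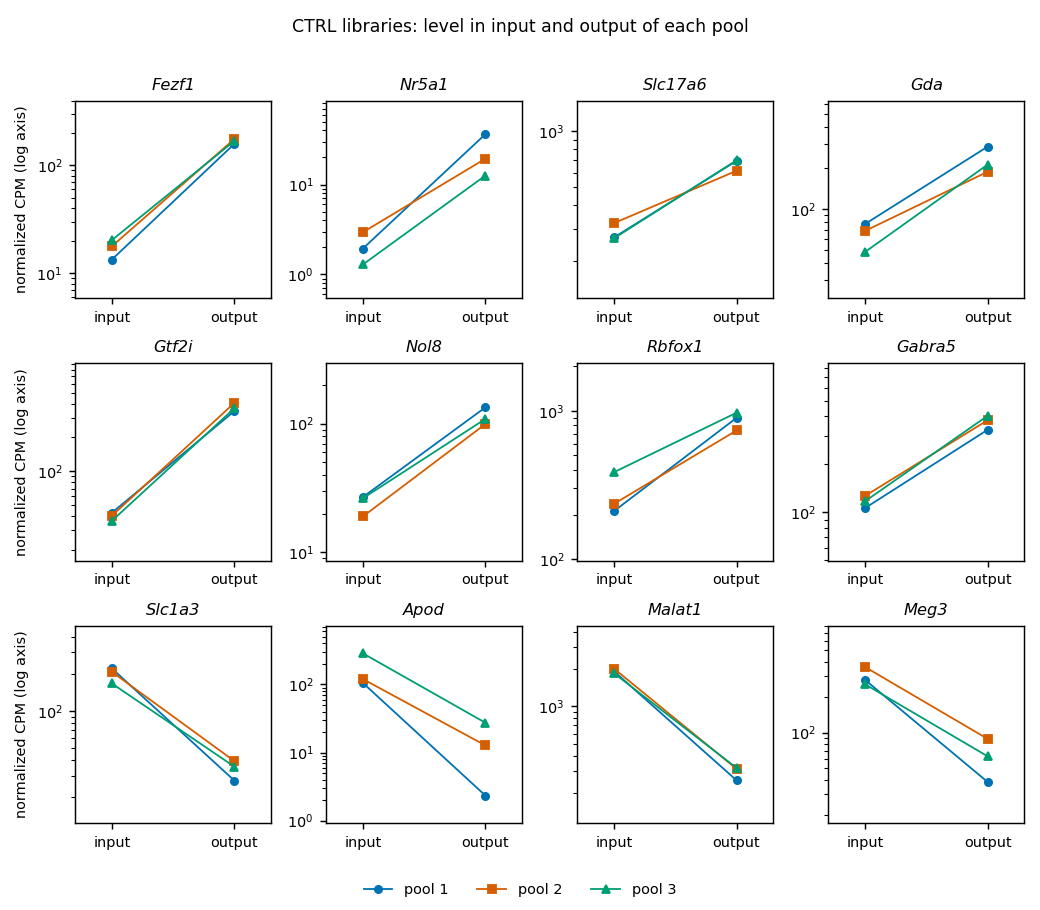
Normalized CPM (log axis) in the input and output library of each CTRL pool for 12 genes, with 1 line per pool. Every output of Fezf1, Nr5a1, Slc17a6, Gda, Gtf2i, Nol8, Rbfox1 and Gabra5 lies above every input, and every output of Slc1a3, Apod, Malat1 and Meg3 lies below every input.

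A wider list of VMN neuron genes had 31 of 32 members measured, of which 15 were higher in outputs, 2 were lower and 14 did not pass, with a median log2 fold change of 1.20 against -0.02 over all genes. Adcyap1, which encodes the neuropeptide PACAP, rose from 49.1, 37.5 and 63.6 CPM to 117.2, 104.5 and 158.3 CPM (1.32 ± 0.18). Gpr149, an orphan receptor, rose by 1.78 ± 0.27, and Lmo3, a cofactor of transcription, by 1.45 ± 0.18. Nptx2, a secreted pentraxin of excitatory synapses, rose by 2.43 ± 0.44 from 8.40, 3.88 and 2.92 CPM to 29.8, 21.5 and 25.3 CPM. The growth factor gene Bdnf rose by 1.87 ± 0.43, the cadherin gene Cdh4 by 1.73 ± 0.34, the cofactor gene Ldb2 by 1.29 ± 0.21, the opioid precursor gene Pdyn by 1.23 ± 0.29, the progesterone receptor gene Pgr by 1.17 ± 0.27 and the cannabinoid receptor gene Cnr1 by 1.01 ± 0.18. Sst, the somatostatin precursor, was the clearest member in the other direction, at 92.5, 101.4 and 92.2 CPM in inputs and 38.8, 32.8 and 24.7 CPM in outputs (-1.62 ± 0.22, adjusted p = 0.00278). Dlk1, a membrane protein of the Notch ligand family, was lower too (-0.61 ± 0.15, adjusted p = 0.0480). Members with known roles in energy balance or mating that did not pass, named after their values were seen, were Esr1 (0.44 ± 0.47), Lepr (0.76 ± 1.04), Nos1 (0.77 ± 0.25, adjusted p = 0.134) and Tac1 (-0.46 ± 0.25). Without pool 1 the count of higher members was 8, and the calls of Bdnf, Cdh4, Pdyn, Pgr, Cnr1 and Dlk1 ended (adjusted p 0.0812 to 0.249). Without the block Cdh4 and Pgr did not pass (0.0724 and 0.0849). Dlk1 also did not pass without pool 2 or 3 (0.238 and 0.0949), Bdnf without pool 2 (0.162), and Pdyn without pool 2 or 3 (0.150 and 0.0568).

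Beyond the lists of known genes, 199 of the 272 higher genes belonged to none of the 32 lists. The gene with the clearest rise among them was Gtf2i, which encodes the general transcription factor TFII-I (chr5:134237834-134314760, minus strand). It had 42.8, 40.3 and 36.3 CPM in inputs and 342.5, 404.9 and 363.4 CPM in outputs, a rise of 3.19 ± 0.17 (adjusted p = 1.25e-06). Its inputs and its outputs each lay within a narrow range, and its fold change was close to that of Fezf1. Nol8, which encodes a nucleolar protein, went from 26.9, 19.0 and 26.3 CPM to 133.9, 99.4 and 108.9 CPM (2.22 ± 0.21, adjusted p = 1.88e-04). Ano3, of the anoctamin family of membrane proteins, went from 48.8, 22.8 and 23.4 CPM to 121.9, 136.8 and 116.9 CPM (2.05 ± 0.26, adjusted p = 0.00157). Ube4a, which encodes a ubiquitin ligase, went from 30.8, 34.5 and 37.0 CPM to 140.9, 123.1 and 109.8 CPM (1.84 ± 0.21, adjusted p = 7.62e-04). In each of these 4 genes all outputs lay above all inputs and the call held without each pool in turn. Rbfox1, a neuronal splicing regulator, rose from 211.0, 236.1 and 385.9 CPM to 896.7, 737.3 and 970.9 CPM (1.66 ± 0.16, adjusted p = 2.46e-04), with the highest input and the highest output both in pool 3. The transcription factor gene Ets2 (2.06 ± 0.28, adjusted p = 0.00231) and Rerg, a Ras-like GTPase gene (2.37 ± 0.53, adjusted p = 0.0334), also passed without each pool. Rerg did not pass without the block (adjusted p = 0.0527).

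**Figure D2:**
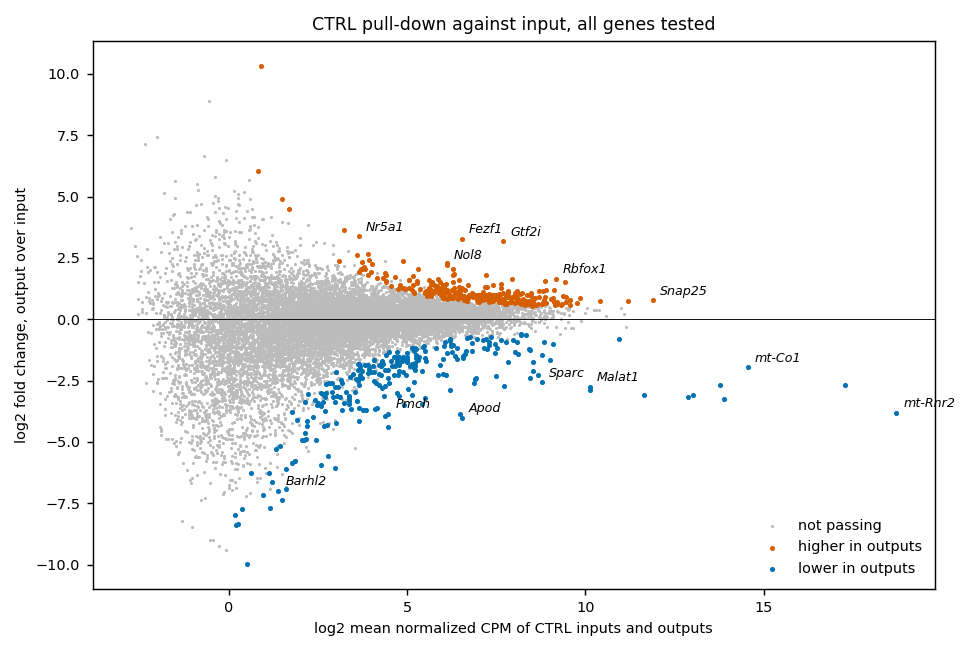
Log2 fold change of CTRL output over input against the log2 mean level of all 13456 genes tested. Genes that passed the test are coloured, and those higher in outputs lie mostly at higher levels, with Fezf1, Nr5a1 and Gtf2i above the bulk and Apod, Malat1 and the mitochondrial genes below it.

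The other genes with the largest rises in no list were less stable. Glipr1, which encodes a secreted or membrane-bound protein related to plant defence proteins, went from 0.0346, 0.569 and 0.133 CPM to 6.25, 5.96 and 3.77 CPM (4.91 ± 1.19, adjusted p = 0.0447), and Itga11, a collagen-binding integrin gene, from 0.104, 0.463 and 0.177 CPM to 8.81, 8.04 and 1.77 CPM (4.51 ± 1.06, adjusted p = 0.0393). No input of either exceeded 0.569 CPM. Klf5, a Krüppel-like transcription factor gene, rose by 2.61 ± 0.48, Nkd2, an inhibitor of Wnt signalling, by 2.35 ± 0.45, Fahd1, a mitochondrial enzyme gene, by 2.26 ± 0.40, and Cd55, which protects cells from complement, by 2.13 ± 0.48. Ankfn1 (2.06 ± 0.50), H2-Q2 (2.05 ± 0.48), Spns2, a transporter of sphingosine phosphate (1.93 ± 0.44), Ubqln4, a ubiquilin (1.92 ± 0.43), Ptprr, a tyrosine phosphatase (1.82 ± 0.37), Zfp831 (1.79 ± 0.40) and Pkp2, a plakophilin (1.67 ± 0.38), completed the 20. H2-Q2 is one of a family of near-identical class I genes, between which reads may have been divided. Glipr1, Fahd1 and Spns2 overlap genes on the other strand (Krr1, Hagh and Mybbp1a, none of which passed), and the strand setting of the counting is not given. Without at least 1 pool, the calls of all 13 genes in this paragraph ended (Ankfn1 0.208 and 0.217, Glipr1 0.0590 to 0.215, Spns2 0.0600 to 0.173 and Zfp831 0.0615 to 0.138 in adjusted p over the pools that ended them). The pool was number 1 for Itga11 (0.249), Nkd2 (0.119), Fahd1 (0.0838), Cd55 (0.0852), H2-Q2 (0.123), Ubqln4 (0.160) and Pkp2 (0.153), and number 2 for Klf5 (0.0940) and Ptprr (0.0816). Without pool 2 Itga11 (0.120), H2-Q2 (0.152), Ubqln4 (0.207) and Pkp2 (0.119) did not pass either, nor without pool 3 Cd55 (0.158) and Ptprr (0.0716). Without the block Glipr1, H2-Q2, Ubqln4 and Zfp831 did not pass (0.0551, 0.0565, 0.0576 and 0.0691).

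Apart from Rbfox1, described above, the most abundant of the enriched genes outside the lists rose by less. Vsnl1, a neuronal calcium sensor, had 1462.2, 1770.7 and 1944.2 CPM in inputs and 2322.5, 3104.5 and 3402.2 CPM in outputs (0.73 ± 0.10, adjusted p = 0.00283). Camsap2, which binds the minus ends of microtubules, rose by 1.18 ± 0.13 (adjusted p = 6.84e-04) from a mean of 338.0 to 778.2 CPM. Dnm3, a dynamin, rose by 0.89 ± 0.14, Ywhab, a 14-3-3 protein gene, by 0.77 ± 0.13, Slc25a4, the carrier of adenine nucleotides across the inner mitochondrial membrane, by 0.72 ± 0.12, and Prkacb, a catalytic subunit of protein kinase A, by 0.63 ± 0.13. In all of them every output was above every input. Camsap2 overlaps Gm26781, which did not pass, on the opposite strand. The calls of Ywhab and Prkacb ended without pool 1 (adjusted p = 0.0794 and 0.165), and that of Prkacb also without pool 3 (0.0744) and without the block (0.105).

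Of 20 genes shared by neurons of all kinds 4 were higher, 1 was lower and 15 did not pass, with a median of 0.20. Snap25, of the release machinery, rose from 2646.6, 2500.6 and 3134.1 CPM to 4831.7, 5082.2 and 4501.3 CPM (0.78 ± 0.12, adjusted p = 0.00437). Nefl, a neurofilament gene, rose by 1.16 ± 0.16, Syn1, of synaptic vesicles, by 0.95 ± 0.13, and Rbfox3, the NeuN gene, by 1.19 ± 0.28. Rbfox3 did not pass without pool 1 or 2 (adjusted p = 0.284 and 0.0700). The lower member was the noncoding RNA Meg3. The genes of this list summed to 5951.0 to 6354.5 CPM in inputs and 8260.4 to 8811.6 CPM in outputs, so that the summed level was higher in every output than in any input.

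Of 21 genes measured in the list of neuronal transcription factors, 5 were higher, none was lower and 16 did not pass (median 0.29). DESeq2 and limma-voom each called 5 higher and 1 lower. The list also holds Islr2, which encodes a membrane protein and did not pass (-1.67 ± 1.37). Among the higher genes were Nr2f2, a nuclear receptor gene, from 30.1, 23.6 and 29.4 CPM to 90.9, 67.5 and 69.5 CPM (1.42 ± 0.23, adjusted p = 0.00614), Nkx2-1, which specifies the ventral hypothalamus, from at most 17.6 CPM in inputs to 43.5, 36.5 and 41.6 CPM (1.41 ± 0.31), and the related genes Tox2 (0.99 ± 0.16) and Tox3 (1.02 ± 0.24). All outputs of Nr2f2 and Nkx2-1 lay above all inputs. Without pool 1 only the call of Tox2 remained, and Nr2f2, Nkx2-1 and Tox3 had adjusted p values of 0.0709, 0.200 and 0.258. Tox3 did not pass without pool 2 either (0.143). Rax and Hmx2 had counts in inputs and 0 in every output, but their counts were too low for them to be tested.

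A list made mainly of receptor genes for fast inhibitory transmission was among the most enriched groups. Named for GABA-A and glycine receptors, it also holds Gabbr1 (0.37 ± 0.15) and Gabbr2 (0.21 ± 0.16), of the slower GABA-B receptor. Neither of them passed. Of the 19 genes of the list measured, 5 were higher and none was lower, 18 had a positive log2 fold change, and the median was 0.51. Gabra5, the alpha 5 subunit of the GABA-A receptor, had 106.3, 126.7 and 117.3 CPM in inputs and 329.0, 377.8 and 402.8 CPM in outputs. No output came near an input (1.63 ± 0.15, adjusted p = 1.37e-04). The beta 1 subunit gene Gabrb1 was more abundant and rose by 0.66 ± 0.12, and Gabre, the epsilon subunit gene, rose by 0.91 ± 0.22 with outputs of 103.9, 274.3 and 170.7 CPM that spread more than its inputs. Glra1, a glycine receptor gene, went from 6.15, 6.55 and 2.88 CPM to 24.7, 19.4 and 18.3 CPM (2.04 ± 0.45, adjusted p = 0.0306). Glra1 did not pass without pool 1 or 3 (adjusted p = 0.152 and 0.0701), and Gabrb1 and Gabre did not pass without pool 2 (0.0600 and 0.187). Without pool 2 the list held 3 higher genes. Gabre did not pass without the block (0.0872).

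Of 24 glutamate receptor genes 4 were higher and none was lower, with a median of 0.18, while DESeq2 called 6 higher and 1 lower. The 4 were Grin2a (1.04 ± 0.19) and Grin2b (0.60 ± 0.12), subunits of the NMDA receptor, Gria3 (0.83 ± 0.17), of the AMPA receptor, and the metabotropic receptor gene Grm5 (0.85 ± 0.18). Grin2b was the most abundant of these, at 537.2, 654.0 and 599.2 CPM in inputs and 907.4, 942.3 and 906.9 CPM in outputs. None of the 4 passed without pool 1, where their adjusted p values were 0.117, 0.154, 0.178 and 0.192 in the order given. Grm5 did not pass without pool 3 (0.0513), and without the block Grin2a and Grm5 did not pass (0.0529 and 0.0901).

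Receptors for hormones, peptides and amines were tested as a list of 82 genes, 71 of them measured, of which 6 were higher, 1 was lower and 64 did not pass (median 0.21). Prlr, the prolactin receptor gene, had 94.4, 89.2 and 72.5 CPM in inputs and 221.4, 207.0 and 219.7 CPM in outputs (1.32 ± 0.17, adjusted p = 0.00156), with the outputs close together and all above the inputs. Oxtr, the oxytocin receptor gene, went from 11.1, 11.0 and 6.25 CPM to 35.1, 23.4 and 34.3 CPM (1.70 ± 0.39, adjusted p = 0.0344). All outputs of Oxtr lay above all its inputs. Thrb, a thyroid hormone receptor gene, rose by 1.13 ± 0.22. Ntrk2, the receptor gene for brain-derived neurotrophic factor, was the lower member, from 794.4, 801.0 and 592.6 CPM to 386.2, 398.8 and 310.1 CPM (-1.02 ± 0.13, adjusted p = 0.00130). Only the call of Prlr among the 6 higher genes remained without pool 1, where Oxtr and Thrb had adjusted p values of 0.159 and 0.152, and Cnr1 and Pgr 0.0812 and 0.249. Oxtr did not pass without pool 3 either (0.107), and Pgr did not pass without the block (0.0849).

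Among 53 potassium channel genes, 6 were higher, 1 was lower and 46 did not pass (median 0.34). Over all genes tested 2.02% were higher and 1.90% lower, and 11.2% of the most abundant 25% were called. Kcnq3, a subunit of the M-current channel, had 298.3, 363.4 and 384.9 CPM in inputs and 947.0, 1066.3 and 1063.4 CPM in outputs, a wide gap (1.53 ± 0.13, adjusted p = 6.18e-05). Kcnip1, a subunit that modulates A-type channels, rose by 1.27 ± 0.20, Dpp10, another such subunit, by 0.89 ± 0.18, Kcnb2 by 0.82 ± 0.20 and Kcnh7 by 0.81 ± 0.19. Kcnj16, an inward rectifier of glia, fell from 95.8, 88.7 and 150.7 CPM to 24.6, 27.8 and 17.5 CPM (-2.27 ± 0.29, adjusted p = 0.00165). Without pool 1 only Kcnq3 and Kcnip1 stayed among the higher genes, with adjusted p of 0.151 for Dpp10, 0.266 for Kcnb2 and 0.312 for Kcnh7. Kcnb2 also did not pass without pool 3 (0.0902), and with upper quartile scaling 3 genes were higher. Of 37 sodium, calcium and HCN channel genes, 2 were higher and none was lower with edgeR, while DESeq2 called 4 higher and 2 lower. One of the higher genes was Cacna2d1, an auxiliary calcium channel subunit gene (1.09 ± 0.14, adjusted p = 0.00189).

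Of 43 genes of calcium and cyclic nucleotide signalling, 6 were higher and none was lower (median 0.31). Calb1, which encodes the calcium buffer calbindin, went from 90.4, 84.0 and 99.1 CPM to 236.2, 210.5 and 292.4 CPM (1.39 ± 0.16, adjusted p = 7.54e-04). The kinase gene Camk2a rose by 0.92 ± 0.15, the phospholipase gene Plcb4 by 0.89 ± 0.15, the calcium release channel gene Itpr1 by 0.92 ± 0.17, Camk2b by 0.74 ± 0.18 and Gnal, a stimulatory G protein subunit, by 0.66 ± 0.14. Outputs and inputs of Calb1 were well apart. Without pool 1 the calls of Camk2b, Gnal and Itpr1 ended (adjusted p = 0.130, 0.137 and 0.116), leaving 3 in the list. Camk2b (0.172 and 0.0889) did not pass without pool 2 or 3 or without the block (0.0862), and Gnal (0.0667) did not pass without pool 2.

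Among genes of cell adhesion at synapses, 11 of 62 were higher, none was lower and 51 did not pass (median 0.35), while DESeq2 called 15 higher and 3 lower. Cbln1, a secreted organiser that bridges neurexins and delta glutamate receptors, went from 40.1, 28.5 and 24.3 CPM to 110.0, 95.7 and 63.3 CPM (1.50 ± 0.22, adjusted p = 0.00337). Nptx1, a relative of Nptx2, went from 42.8, 30.4 and 31.1 CPM to 100.4, 104.7 and 73.7 CPM (1.39 ± 0.22, adjusted p = 0.00609). Both genes had their lowest output in pool 3, still above every input. Cadm3 (1.06 ± 0.19), Opcml (1.01 ± 0.15), Slitrk1 (1.01 ± 0.19), Cntn3 (1.23 ± 0.29), Nlgn1 (0.89 ± 0.17), Tenm2 (0.79 ± 0.16), Cntnap2 (0.72 ± 0.14) and Negr1 (0.61 ± 0.15) encode cell surface adhesion proteins and rose too. Without pool 1 only Cbln1, Nptx1 and Nptx2 passed. The other 8 genes had adjusted p values from 0.0528 (Opcml) to 0.295 (Negr1) there. Without pool 2 Cntn3 (0.208) and Cntnap2 (0.0903) did not pass, without pool 3 Negr1 (0.0568) did not, and without the block Cntn3 (0.0594) did not.

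In the list of axon guidance and cadherin genes, 6 of 65 were higher, 3 were lower and 56 did not pass (median 0.19). Sema5a, a semaphorin, had 237.6, 266.1 and 254.6 CPM in inputs and 570.4, 587.0 and 584.7 CPM in outputs, both narrow ranges (1.17 ± 0.13, adjusted p = 7.51e-04). Cdh13, a cadherin anchored by a lipid, went from 42.0, 51.2 and 27.7 CPM to 118.0, 136.3 and 92.2 CPM (1.52 ± 0.19, adjusted p = 0.00160). The protocadherin genes Pcdh7 and Pcdh17 rose by 0.87 ± 0.13 and 0.66 ± 0.13, and the semaphorin receptor gene Plxna2 by 0.85 ± 0.20. Other members of the same families went the other way: Sema5b by -3.98 ± 0.96, Cdh20 by -3.22 ± 0.66 and Sema6d by -1.06 ± 0.23. Without pool 1 Cdh4, Pcdh17, Plxna2 and Sema6d did not pass (adjusted p = 0.160, 0.0785, 0.198 and 0.201), which left 3 higher genes. Without pool 2 Pcdh17, Cdh20 and Sema5b did not pass (0.0588, 0.0596 and 0.107), and without pool 3 Pcdh17, Plxna2 and Sema5b did not (0.0585, 0.114 and 0.151). Without the block Cdh4 and Sema5b had 0.0724 and 0.0919.

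Of 29 genes of synaptic vesicle release 4 were higher and none lower (median 0.08), 15 had an unadjusted p under 0.05, and DESeq2 called 8 higher and 3 lower and limma-voom 6 and 2. The 4 were Snap25, Vamp2 (0.66 ± 0.14) and Nsf (0.61 ± 0.13), which take part in membrane fusion, and Doc2b (1.82 ± 0.34), a calcium sensor. The outputs of Doc2b were 126.3, 122.3 and 105.5 CPM, while its inputs of 30.1, 18.1 and 64.7 CPM varied more. Of 31 genes of the ubiquitin system 3 were higher and none lower with edgeR and with limma-voom, and DESeq2 called 4 higher and none lower. The 3 were the ligase genes Nedd4 (0.81 ± 0.13) and Nedd4l (1.02 ± 0.14) and the conjugating enzyme gene Ube2d3 (0.88 ± 0.17). Without pool 1 only Snap25 of the first list and Nedd4l of the second passed, with adjusted p of 0.0822 for Doc2b, 0.128 for Nsf, 0.162 for Vamp2, 0.0528 for Nedd4 and 0.0996 for Ube2d3. Without pool 2 Nsf (0.0594), Vamp2 (0.0618) and Ube2d3 (0.0563) did not pass, and without pool 3 Nsf (0.0723) did not.

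Of 13 markers of GABA neurons measured, 3 were lower and none was higher, 12 had a negative log2 fold change, and the median was -1.85. Gad2, an enzyme that makes GABA, had 671.3, 716.3 and 557.2 CPM in inputs and 273.6, 232.6 and 212.4 CPM in outputs (-1.47 ± 0.14, adjusted p = 1.76e-04). Gad1, the other GABA-making enzyme gene, was lower at -1.68 ± 0.37. Slc32a1, the vesicular GABA transporter gene, had inputs of 8.43, 8.25 and 8.60 CPM and outputs of 2.48, 1.96 and 1.29 CPM but did not pass (-2.22 ± 0.67, adjusted p = 0.104). Summed over the list, the outputs held 42.0%, 33.7% and 41.1% of the level of their inputs. Input and output of a pool came from the same tissue, so these ratios give relative levels of marker RNA in the pull-down and not numbers of cells. Gad1 did not pass without pool 1 or 2 (adjusted p = 0.0805 and 0.0754) or without the block (0.0585).

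Neurons of neighbouring nuclei gave mixed results. Of 16 arcuate genes 5 were lower and 2 higher, and the median was -2.28. The growth hormone-releasing hormone gene Ghrh went from 17.7, 14.0 and 13.9 CPM to 1.12, 0.862 and 0.563 CPM (-4.23 ± 0.59, adjusted p = 0.00292), and the monoamine transporter gene Slc18a2 from 38.0, 58.8 and 57.1 CPM to 5.99, 12.3 and 15.6 CPM (-2.29 ± 0.30). Otp, a transcription factor gene, was lower at -2.59 ± 0.39, Cartpt, a peptide precursor, at -1.78 ± 0.31, and Slc6a3, the dopamine transporter gene, at -5.79 ± 1.12, with outputs of at most 0.125 CPM. The 2 higher genes were Prlr and Pdyn, which VMN neurons also express, and with Prlr the most abundant member in outputs the summed level of the list was 106.9% to 108.7% of the inputs. Agrp and Npy, peptides of hunger-promoting neurons, fell short of the threshold (-6.33 ± 2.09 and -4.55 ± 1.41, adjusted p = 0.135 and 0.111), and Pomc stood at 0.60 ± 0.81. Cartpt did not pass without pool 1 (adjusted p = 0.0709) and Slc6a3 not without pool 3 (0.143).

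Of 14 genes of the lateral and paraventricular hypothalamus 3 were lower and none was higher (median -2.49). Pmch, the precursor of melanin-concentrating hormone, had 43.1, 39.7 and 39.8 CPM in inputs and 1.75, 2.90 and 4.72 CPM in outputs (-3.85 ± 0.42, adjusted p = 5.92e-04). Hcrt, the orexin precursor, went from 6.81, 5.59 and 4.43 CPM to 0, 0.0627 and 0.0496 CPM (-7.35 ± 1.35, adjusted p = 0.0126, and 0.0667 without pool 1). Neither peptide gene had an output within the range of its inputs. The third was Otp, which is in this list as well. Avp, the vasopressin precursor, had an adjusted p of 0.0505 with the block and passed without it (0.0395). Without the block 5 genes of the list were lower. The outputs held 22.7%, 24.3% and 32.0% of the summed input level. Of 10 genes of suprachiasmatic, preoptic and mammillary neurons none passed with edgeR (median -2.82), 4 had an unadjusted p under 0.05, and DESeq2 called 6 lower and limma-voom 2.

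Of 19 astrocyte markers 16 were lower, and the median was -2.19. All 19 had a negative log2 fold change and every output below every input, where 23.3% of all genes tested had outputs and inputs apart. Slc1a3, a glutamate transporter gene, went from 222.1, 208.4 and 167.7 CPM to 27.3, 39.3 and 35.4 CPM (-2.59 ± 0.20, adjusted p = 4.33e-05). The related transporter gene Slc1a2 fell much less, from 2662.3, 2675.7 and 2096.3 CPM to 1398.5, 1539.4 and 1328.4 CPM (-0.82 ± 0.11, adjusted p = 0.00175), so it remained the most abundant astrocyte marker in outputs. The water channel gene Aqp4 was at -1.19 ± 0.16, the glutamine synthetase gene Glul at -1.17 ± 0.17, the aldolase gene Aldoc at -1.34 ± 0.19, the bicarbonate transporter gene Slc4a4 at -1.43 ± 0.14 and the intermediate filament gene Gfap at -3.32 ± 0.51. Folds among astrocyte markers thus ran from -0.82 to -6.12 (Htra1). Their summed level was 3999.2 to 4818.7 CPM in inputs and 1923.3 to 2201.7 CPM in outputs, 42.3% to 48.1% within pools. All of these genes except Htra1 (adjusted p = 0.126 without pool 1) passed without each pool.

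Of 19 oligodendrocyte markers 14 were lower, with all 19 negative and a median of -2.34. Mbp, the myelin basic protein gene, had 122.9, 111.7 and 138.8 CPM in inputs and 42.5, 30.2 and 56.0 CPM in outputs (-1.61 ± 0.20, adjusted p = 0.00130). Mobp, of myelin, was at -1.49 ± 0.18, Ermn, a cytoskeletal protein gene, at -1.87 ± 0.25, and Mal, of myelin membranes, at -2.28 ± 0.32, and each of these passed without each pool. All Mbp outputs were below all its inputs. Outputs held 23.7%, 24.8% and 30.7% of the summed level of the inputs, and without pool 1 the number of lower genes was 7. Of 10 genes of oligodendrocyte precursors 2 were lower and 8 did not pass (median -2.15). The lower ones were Pdgfra, a growth factor receptor gene (-2.61 ± 0.36), and Bcas1 (-2.52 ± 0.43). Log2 fold changes were negative in 8 members and positive in 2, which were Tnr (0.03 ± 0.13) and Lhfpl3 (0.09 ± 0.20). For this list the outputs held 86.9%, 96.6% and 87.3% of the summed input level, far more than for oligodendrocytes. Such a sum is set mostly by the most abundant members, and the medians of both lists, -2.15 and -2.34, lay close together.

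**Figure D3:**
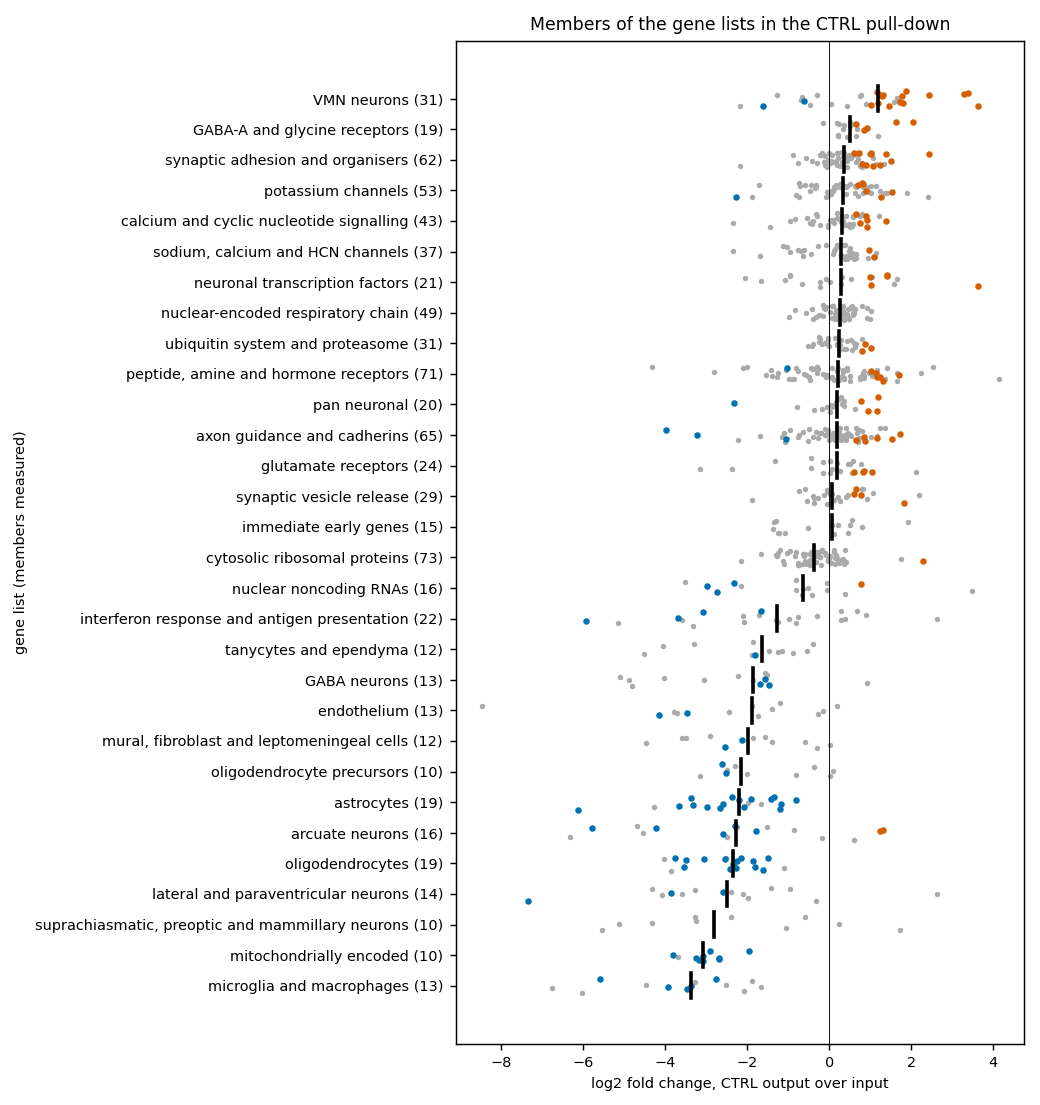
Log2 fold change of CTRL output over input for each measured member of the gene lists, ordered by the median of the list (black bar). Members that passed the test are orange (higher in outputs) or blue (lower). The lists of VMN neurons and of GABA-A and glycine receptors have the highest medians, 1.20 and 0.51, and the lists of glia, of other neurons and of mitochondrial genes have negative ones.

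Microglial genes had negative log2 fold changes in all 13 measured members, of which 5 passed as lower, with a median of -3.37. Ctss, a lysosomal protease gene, had 13.6, 23.7 and 126.2 CPM in inputs and 2.15, 0.972 and 14.1 CPM in outputs (-3.48 ± 0.41, adjusted p = 9.08e-04). Pool 3 was far above the other pools in both libraries, so the groups overlapped, while the output was lower than the input within each pool. The complement genes C1qb (-3.37 ± 0.80) and C1qc (-5.59 ± 0.87), the growth factor receptor gene Csf1r (-2.77 ± 0.68) and the integrin gene Itgam (-3.93 ± 0.76) also had their highest input in pool 3. Trem2 had counts in inputs and 0 in every output, but its counts were too low for it to be tested. The summed level of the list was 107.2 to 415.4 CPM in inputs and 10.8 to 51.8 CPM in outputs. Without the block only C1qb passed (adjusted p = 0.0233), and Ctss, C1qc, Csf1r and Itgam had 0.119, 0.0919, 0.0747 and 0.0512. Without pool 1 the calls of C1qb, Csf1r and Itgam ended (0.0685, 0.179 and 0.0831), leaving 2 in the list. The same 3 did not pass without pool 3 (0.280, 0.303 and 0.0549).

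Genes of the interferon response and antigen presentation showed this feature of pool 3 most clearly. B2m, the light chain of class I molecules, had 151.5, 186.9 and 1952.1 CPM in inputs and 43.5, 61.5 and 678.3 CPM in outputs. The output of pool 3 was thus above the inputs of pools 1 and 2, while within each pool the output was lower by a like factor (-1.67 ± 0.13, adjusted p = 4.44e-05). Without the block B2m did not pass (adjusted p = 0.517). H2-K1, a class I gene, went from 9.47, 8.61 and 132.8 CPM to 0.401, 0.721 and 57.7 CPM (-3.07 ± 0.56, adjusted p = 0.0119, and 0.711 without the block). Gbp2, an interferon-induced GTPase gene, was lower at -3.69 ± 0.68 and Ifitm3, an antiviral membrane protein gene, at -5.92 ± 0.96, and neither passed without the block (0.528 and 0.105). These were the 4 lower members of 22 measured, none was higher, and no member passed without the block. Gbp2 did not pass without pool 3 (0.120). The summed level of the list was 227.4 and 357.4 CPM in the lowest and middle inputs and 3069.9 CPM in the highest. Nothing in the labels sets pool 3 apart, and its part in other results was measured only by leaving it out.

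**Figure D4:**
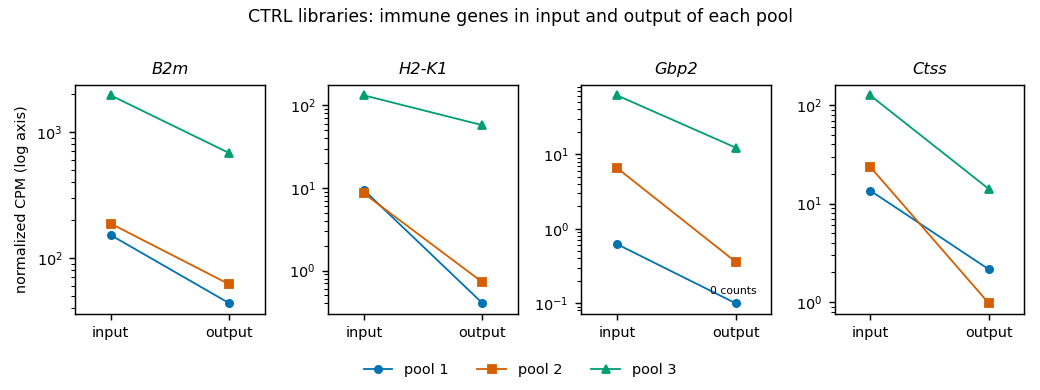
Normalized CPM (log axis) of B2m, H2-K1, Gbp2 and Ctss in the input and output library of each CTRL pool, with 1 line per pool and a count of 0 drawn at the bottom of the axis. Pool 3 lies far above the other pools in both libraries, and each line falls from input to output.

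Of 13 endothelial genes 2 were lower, Flt1, a receptor for vascular growth factor (16.4, 18.4 and 34.9 CPM in inputs and 4.07, 0.721 and 0.745 CPM in outputs, -4.14 ± 0.74, adjusted p = 0.0113), and Ly6a, a membrane antigen gene (-3.47 ± 0.65, adjusted p = 0.0141). Ly6a did not pass without pool 3 (adjusted p = 0.129) or without the block (0.457), and its pool 3 libraries were the highest. Of 12 genes of mural, fibroblast and leptomeningeal cells 2 were lower, the growth factor gene Igf2 (-2.55 ± 0.28) and the pericyte gene Rgs5 (-2.12 ± 0.37, adjusted p = 0.0614 without pool 1 and 0.0545 without the block). Vwf, Ly6c1 and Col3a1 had counts in inputs and 0 in every output. Vwf did not pass (-8.48 ± 2.43, adjusted p = 0.102), and the counts of Ly6c1 and Col3a1 were too low for them to be tested. Of 12 genes in the list of tanycytes and ependyma 1 was lower, the orphan receptor gene Gpr50 (-1.80 ± 0.32, adjusted p = 0.0900 without pool 1), and all 12 were negative. The 12 include Hdc (-4.05 ± 1.39, not passing), which is also a marker of histamine neurons.

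Of 10 mitochondrially encoded genes 9 were lower, and the median was -3.08. Outputs and inputs lay apart in all 10, against 23.3% of all genes tested. The ribosomal RNA mt-Rnr2 was at -3.80 ± 0.09 (adjusted p = 1.46e-09) and mt-Rnr1 at -2.69 ± 0.10, and the messenger mt-Co1, for a subunit of cytochrome oxidase, fell least at -1.96 ± 0.13. Nuclear genes for the respiratory chain, by contrast, had a median of 0.27 over 49 members and none passed with edgeR in either direction, although 6 had an unadjusted p under 0.05, DESeq2 called 3 higher and 1 lower, and limma-voom called 2 higher. Among 16 nuclear noncoding RNAs measured 3 were lower, 1 was higher and 12 did not pass, with a median of -0.65. Malat1, a noncoding RNA held in nuclear speckles, had 1914.4, 2009.8 and 1845.6 CPM in inputs and 253.0, 313.0 and 318.2 CPM in outputs (-2.74 ± 0.13, adjusted p = 4.76e-07). Meg3, a noncoding RNA of an imprinted cluster, went from 279.2, 359.2 and 256.5 CPM to 38.2, 88.5 and 63.0 CPM (-2.33 ± 0.20, adjusted p = 9.45e-05). Both had narrow input ranges and no overlap. Neat1, of paraspeckles, was lower at -2.97 ± 0.67 but did not pass without pool 1 or 2 (adjusted p = 0.165 and 0.0542) or without the block (0.173).

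Some noncoding RNAs were higher in outputs instead. Tug1 had 162.3, 155.7 and 134.8 CPM in inputs and 243.9, 316.4 and 311.4 CPM in outputs (0.91 ± 0.17, adjusted p = 0.0120), passing without each pool, and overlaps Morc2a, which did not pass, on the opposite strand. C130093G08Rik rose by 2.67 ± 0.42 (adjusted p = 0.00561) from 4.22, 5.16 and 2.53 CPM to 22.7, 36.2 and 18.5 CPM, also without overlap and without depending on 1 pool. This gene (chr6:23251133-23253358, plus strand) lies close to the marker Fezf1 (chr6:23245044-23248362, minus strand), which rose by 3.28. Peg13, from an imprinted region, rose by 0.77 ± 0.16 (adjusted p = 0.192 without pool 1) and lies within Trappc9 on the same strand. A830011K09Rik rose by 2.38 ± 0.54 and overlaps Lmo3 on the opposite strand, which itself rose, and its call ended without pool 1 or 2 (0.159 and 0.155). Reads of such overlapping pairs cannot be told apart without the strand setting. Of 991 genes tested that do not code for protein, 5 were higher and 10 lower.

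Of 73 cytosolic ribosomal protein genes 1 was higher and none lower, with a median of -0.36, 3 had an unadjusted p under 0.05, and DESeq2 called 2 higher and 1 lower. The higher gene was Rpl15, from 30.1, 19.4 and 19.7 CPM to 150.1, 82.7 and 116.5 CPM (2.29 ± 0.21, adjusted p = 1.58e-04), which passed without each pool and has no output near its inputs. Rpl10a, a ribosomal protein gene with a name close to that of the tagged protein, had 3.73, 2.95 and 3.55 CPM in inputs and 16.5, 11.1 and 8.80 CPM in outputs but did not pass (1.76 ± 0.55, adjusted p = 0.112). Rpl10 had a negative log2 fold change and did not pass either (-1.27 ± 1.25, adjusted p = 0.682). Ribosomal protein genes have many processed copies in the genome, and how the authors' counting divided reads among them is not given. None of 15 immediate early genes passed with edgeR (median 0.07, 2 at an unadjusted p under 0.05), with DESeq2 or with limma-voom. None of the 2 blood genes measured passed with edgeR (1 at an unadjusted p under 0.05 and 1 called lower by DESeq2), and none of the 3 pituitary genes passed with edgeR, DESeq2 or limma-voom or had an unadjusted p under 0.05.

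Outside the lists 180 of the 255 lower genes remained. Apod, which encodes a lipid-binding apolipoprotein, had 104.9, 119.7 and 285.3 CPM in inputs and 2.33, 12.7 and 27.3 CPM in outputs (-4.01 ± 0.40, adjusted p = 2.91e-04), with pool 3 highest in both. Ptgds, which makes prostaglandin D and is known from leptomeninges and oligodendrocytes, went from 40.4, 38.0 and 46.0 CPM to 0.602, 5.67 and 2.25 CPM (-4.38 ± 0.61, adjusted p = 0.00291). Apoe, the apolipoprotein of astrocytes, went from 36.4, 28.6 and 33.7 CPM to 2.68, 2.43 and 3.23 CPM (-3.60 ± 0.39, adjusted p = 6.04e-04). The outputs of all 3 lay far below the inputs. Dbi, which encodes an acyl-CoA binding protein (-3.44 ± 0.40), Sdc4, a syndecan (-3.62 ± 0.52), Gpr37l1, a receptor of astrocytes (-4.35 ± 0.66), and Iqck (-3.69 ± 0.61) complete the 7 of the 20 largest falls that passed without each pool. The most abundant lower genes were Sparc, a matrix protein gene, from 732.2, 834.5 and 674.2 CPM to 104.3, 125.2 and 165.0 CPM (-2.56 ± 0.17, adjusted p = 1.16e-05), and its relative Sparcl1 (-2.11 ± 0.14). Then came the RNA-binding protein gene Qk (-0.93 ± 0.13), Cdr1 (-1.75 ± 0.16), the desaturase gene Scd2 (-1.24 ± 0.15), the sodium pump subunit gene Atp1b2 (-1.22 ± 0.14), the membrane protein gene Gpm6b (-1.35 ± 0.15) and the microtubule protein gene Map1a (-0.66 ± 0.14). Cdr1, Map1a, Sparcl1 and Iqck overlap other genes on the opposite strand, none of which passed. Map1a did not pass without pool 1 or 2 (adjusted p = 0.185 and 0.111).

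The other 13 of the 20 largest falls included transcription factor genes of neurons and genes of glia and immune cells. Barhl2, a homeobox gene, had 4.94, 1.21 and 9.44 CPM in inputs and 0.0143, 0.0313 and 0.0496 CPM in outputs (-6.99 ± 1.27, adjusted p = 0.0122), and Sall3, a zinc finger gene, had 9.89, 13.6 and 7.53 CPM against 0.344, 1.50 and 0.0496 CPM (-4.90 ± 0.94, adjusted p = 0.0159). Srebf1, a regulator of lipid synthesis, was at -4.90 ± 1.15, Mgst1, a glutathione transferase gene, at -5.17 ± 1.27, Slc6a9, a glial glycine transporter gene, at -3.76 ± 0.86, Ctsh, a cathepsin gene, at -4.30 ± 0.65, Bin2 at -4.34 ± 0.84, Cyp1b1, a cytochrome P450 gene, at -4.62 ± 0.98, and Nrn1, the neuritin gene, at -4.93 ± 1.11. Anpep (-6.91 ± 1.55), Ccdc173 (-5.85 ± 1.02), Tlcd1 (-4.89 ± 1.09) and Tor3a (-4.16 ± 0.78) make up the rest. The outputs of these genes reached at most 2.44 CPM, in pool 2 of Tlcd1. Nrn1, Srebf1, Tlcd1 and Slc6a9 overlap genes on the opposite strand, none of which passed. Without at least 1 pool the call of each of the 13 ended. That pool was number 1 for Barhl2 (adjusted p = 0.0770), Anpep (0.123), Ccdc173 (0.0536), Mgst1 (0.257), Sall3 (0.0783), Srebf1 (0.117), Tlcd1 (0.151), Cyp1b1 (0.0785), Bin2 (0.0901), Tor3a (0.0563) and Slc6a9 (0.221). It was number 3 for Ctsh (0.157), and 2 or 3 for Nrn1 (0.0753 and 0.0724). Without pool 3 the calls of Barhl2 (0.0754), Mgst1 (0.0963), Srebf1 (0.0959), Cyp1b1 (0.0744), Bin2 (0.0513), Tor3a (0.0828) and Slc6a9 (0.0810) ended as well, and that of Slc6a9 also without pool 2 (0.0754). Without the block 9 of the 13 did not pass, which were Anpep (0.164), Mgst1 (0.0807), Nrn1 (0.0663), Sall3 (0.0593), Srebf1 (0.0807), Tlcd1 (0.213), Cyp1b1 (0.118), Bin2 (0.116) and Ctsh (0.0928).

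The genes that rose and those that fell differed in abundance and size. Of the 272 higher genes, 246 were among the most abundant 25% of genes tested and 2 among the least abundant 25%, against 131 and 8 of the 255 lower genes. Called genes made up 11.2% of the most abundant genes and 0.297% of the least abundant ones. Enriched genes changed less, with a median log2 fold change of 1.0 and 23 genes at 2 or above, whereas the depleted genes had a median of -2.26 and 146 genes at -2 or below. Enriched protein-coding genes spanned a median of 72.9 kb in the genome, depleted ones 30.6 kb and all tested 28.4 kb. Of the enriched genes 40.4% were longer than 100 kb, as Rbfox1, Opcml and Cntnap2 are, against 20.8% of the depleted and 17.3% of all. The median exon length was 6.22 kb in enriched, 4.33 kb in depleted and 4.80 kb in all genes tested. The part of abundance and length in these results was not tested.

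Promoters were searched for CAAGGTCA on both strands, a core form of the site that SF1 binds as a monomer, in RefSeq windows (GRCm38.p6) from 250 bases before to 50 bases after each gene's start. Of the whole table's 32851 windows 1.56% held it, and of the 10187 genes tested that had a window 131 did (1.29%). Only 197 of the 272 enriched genes (72.4%) and 193 of the 255 depleted ones (75.7%) could be matched to a window by symbol, too few for a comparison, so none is made. Among the matched genes, 1 enriched gene had a match, Syt6, a synaptotagmin gene (0.90 ± 0.21, adjusted p = 0.0407, and 0.126 and 0.169 without pool 1 or 2), and 2 depleted genes did, Paqr8, a membrane progestin receptor gene (-1.17 ± 0.20, adjusted p = 0.00929), and Slc6a11, a glial GABA transporter gene (-2.41 ± 0.21, adjusted p = 9.45e-05). Slc6a11 had 205.2, 219.0 and 182.4 CPM in inputs and 44.3, 52.1 and 24.8 CPM in outputs. Their 250 bases before the start are printed with the match in capitals, beside those of Fezf1, the most clearly enriched marker, which hold no match. Starts are those of RefSeq, and part of the Fezf1 stretch lies inside the positions given earlier for that gene. The matches begin 174 bases before the start in Syt6, 144 in Paqr8, and 218 and 184 in Slc6a11. A match is a string of letters and not a measured binding site.
Fezf1 (chr6:23248265-23248514, minus strand, GRCm38.p6): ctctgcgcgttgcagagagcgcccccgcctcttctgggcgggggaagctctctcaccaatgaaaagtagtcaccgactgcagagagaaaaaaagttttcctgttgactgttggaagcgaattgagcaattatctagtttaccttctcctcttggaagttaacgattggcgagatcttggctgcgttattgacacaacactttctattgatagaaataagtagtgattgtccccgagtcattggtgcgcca
Syt6 (chr3:103574995-103575244, plus strand, GRCm38.p6): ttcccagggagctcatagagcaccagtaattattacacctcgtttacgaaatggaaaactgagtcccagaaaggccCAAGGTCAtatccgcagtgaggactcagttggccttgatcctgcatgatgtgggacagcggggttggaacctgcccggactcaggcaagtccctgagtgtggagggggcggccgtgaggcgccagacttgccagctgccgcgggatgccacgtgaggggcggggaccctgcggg
Paqr8 (chr1:20917590-20917839, plus strand, GRCm38.p6): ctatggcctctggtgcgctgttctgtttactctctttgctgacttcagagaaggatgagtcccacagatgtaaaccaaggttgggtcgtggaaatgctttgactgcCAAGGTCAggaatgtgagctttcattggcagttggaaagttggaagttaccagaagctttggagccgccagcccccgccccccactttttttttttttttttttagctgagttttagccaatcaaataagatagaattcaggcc
Slc6a11 (chr6:114130991-114131240, plus strand, GRCm38.p6): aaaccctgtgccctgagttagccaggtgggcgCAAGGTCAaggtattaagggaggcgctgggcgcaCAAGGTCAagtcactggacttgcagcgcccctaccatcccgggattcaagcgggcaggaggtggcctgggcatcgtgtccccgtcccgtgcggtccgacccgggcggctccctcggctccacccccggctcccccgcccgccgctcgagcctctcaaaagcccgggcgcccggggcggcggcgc

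Enrichment in CTRL animals was set beside the same comparison in DN animals, which have inputs and outputs of their own. There 396 of 13041 genes passed (3.04%), 213 higher (1.63%) and 183 lower (1.40%). Of the 272 genes higher in CTRL all were tested in DN, where 267 had the same sign and 140 passed in the same direction, which is 51.5% of the CTRL genes and 65.7% of the 213 DN genes. Of the 255 lower genes 250 were tested in DN, where 244 had the same sign and 120 passed, 48.0% of the CTRL genes and 66.3% of the 181 DN genes tested in CTRL. No gene passed in opposite directions. Genes that did not pass in CTRL had the same sign in DN in 65.7% of cases. Fezf1 was at 3.39 in DN, Gtf2i at 4.01, Nol8 at 2.63, Gabra5 at 1.61, Kcnq3 at 1.34, Malat1 at -2.81 and Apod at -2.81. Nr5a1 was at 1.78 in DN and did not pass there (adjusted p = 0.168). Its difference between CTRL and DN was 1.60 (95% interval -0.00 to 3.21, adjusted p = 1.0), an interval that reaches from no difference to a much larger enrichment in CTRL.

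A test of the difference itself, as an interaction term over all 12 libraries, called 0 of 15011 genes with edgeR (589 at an unadjusted p under 0.05, 3.92%) and 63 with DESeq2 (0.420%). Among the 527 genes called in CTRL 49 (9.30%) had an unadjusted interaction p under 0.05. These genes were picked by the same CTRL libraries that enter the difference, so their share cannot be compared with the 3.92% of all genes. Gtf2i differed by -0.82 (-1.42 to -0.23, adjusted p = 1.0). The 11 called genes with the opposite sign in DN were Ccnt2, Fam91a1, Gbp9, Itga6, Lonrf1, Map3k20, Pkd2, Ptges3, Ptrh2, Ubqln4 and Zic1, named after their values were seen. Ubqln4 was at 1.92 in CTRL and -1.28 in DN, and Zic1, a transcription factor gene of the neighbouring thalamus and septum, at -3.18 and 0.11. Anpep, Cd80, Gm43528, Nipal4 and Ucn3 passed as lower in CTRL and were not tested in DN because their counts were too low there. Ucn3, a peptide gene of the perifornical area, had 0.830, 4.13 and 1.77 CPM in CTRL inputs and at most 0.0143 CPM in outputs.

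**Figure D5:**
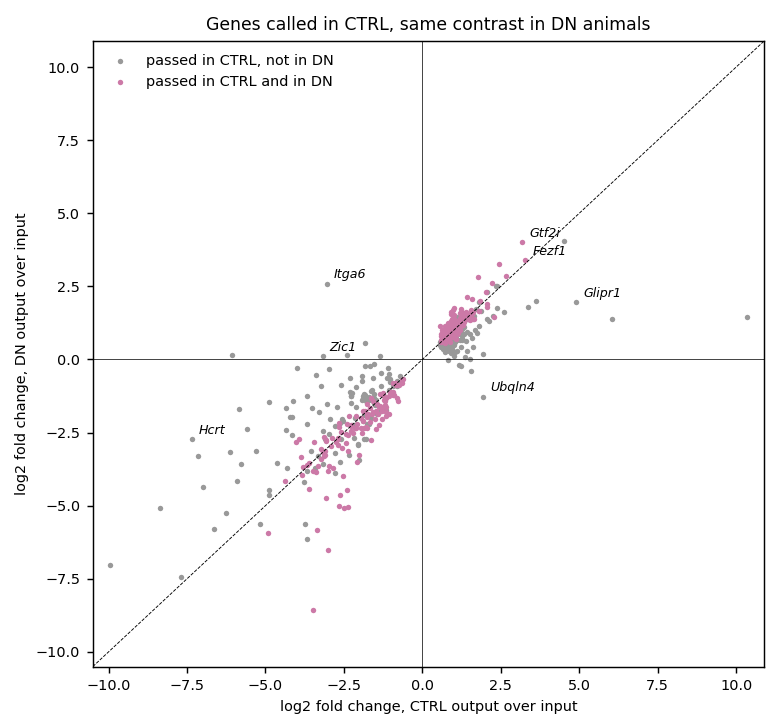
Log2 fold change of output over input in DN against that in CTRL for the genes called in CTRL, with a dashed line of equality. Points are pink where the gene passed in the same direction in DN and grey where it did not. Nearly all points share a sign, and Itga6 (-3.05 in CTRL and 2.59 in DN) lies far from the line.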

How the data were processed

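Deposited values were raw counts of reads per Ensembl gene, 1 file per library, made by the authors without normalization. The genome build was GRCm38 and the tools were HTSeq 0.6.1, STAR 2.4.2a and cutadapt 1.3, per the submitters' processing notes. The sources used here do not give the annotation release, strand setting or parameters. RNA of inputs and outputs was amplified with NuGEN's Ovation system, per the labels. The 5 entries of reads without a gene, 16.5% to 26.1% of CTRL reads, were left out. Symbols and positions came from GENCODE M21, which held 46005 of 46517 identifiers (98.9%).

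Counts were tested with edgeR 4.0.16 (quasi-likelihood, two-sided, R 4.3.3) after filterByExpr (at least 10 counts, total of at least 15) and TMM scaling, with the pool as a block, and Benjamini-Hochberg adjustment over all genes tested, at 0.05. Input and output of a pool come from the same animals. Across genes, the departures of a pool's input and output from their groups correlated at 0.0991, 0.0329 and 0.151. Levels are CPM scaled with TMM factors over 12 libraries, so they need not sum to the CPM base. P-values rest on 3 pools. Alternatives were DESeq2 1.42.0, limma-voom (limma 3.58.1), other scalings and filters, no block, 1 fit of 12 libraries and leaving out each pool. The edgeR fit was tested on simulated data, where its estimates were close to the changes put in and no unchanged gene was called. It called fewer of the changed genes than was first required, and fewest of the smaller changes, and that requirement was dropped afterwards, so many true changes may not pass.

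The animals, 32 gene lists (934 entries) and tests, including the block, were chosen with earlier results of these data known. Named genes were protein-coding, past the threshold, with every output apart from every input and at least 5 CPM in the higher group. Of these in no list, the 20 with the largest change and the 8 most abundant were taken per direction, with up to 5 of other biotypes. Of each list, the 4 members with the smallest p and the most abundant ones were taken, and Fezf1, Nr5a1, Slc17a6, Gda, Rpl10a, Gtf2i, Prkaa1 and Prkaa2 always. Further list members were named after their values were seen. Some genes that meet this rule are not reported here. Promoter sequences are RefSeq's. No protein sequence was used here.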

Additional observations from a re-analysis of the deposited data

Results flagged for a closer look

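Itga6, which encodes a laminin-binding integrin subunit, moved in opposite directions in the 2 groups of animals: it was lower in the output of all 3 CTRL pools and higher in the output of all 3 DN pools. CTRL inputs had 13.8, 8.43 and 10.8 CPM and outputs 1.50, 0.831 and 1.85 CPM, a log2 fold change of -3.05 ± 0.64 (SE, edgeR adjusted p = 0.0225). In DN the mean went from 2.05 to 11.8 CPM, 2.59 ± 0.85, which did not pass (adjusted p = 0.147). The difference of CTRL minus DN was -5.64 (95% interval -7.81 to -3.47), with an unadjusted p of 5.97e-05 and an adjusted p of 0.896 over all genes, so it did not pass. The CTRL call ended without pool 1 or 2 (adjusted p = 0.150 and 0.0697).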

How the results depend on the processing

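Counts of calls moved by over 1.5 times with the test and the filter. In CTRL, DESeq2 called 700 higher and 929 lower genes, no filter on low counts gave 566 and 528, and 1 fit of all 12 libraries gave 167 lower. Leaving out 1 pool gave 82 to 262 higher and 129 to 245 lower, both lowest without pool 1. Enriched genes made up 51.6% of calls in the model as reported, 43.0% with DESeq2, 43.9% with upper quartile scaling and 38.9% without pool 1. In DN, DESeq2 called 1529, no filter 781, 1 fit of all 12 libraries 694, and leaving out 1 pool 107 to 460. The interaction had 63 calls with DESeq2 and 1 with no filter. The cause of these shifts was not tested. Fits that left out a pool had fewer libraries, and other filters changed the set of genes tested. Without the replicate block, where the pairing by pool is ignored, 240 genes were higher and 191 lower. The shorter motif AAGGTCA was in 4.72% of promoter windows. Of the 527 calls, 156 held without each pool, 67 higher and 89 lower, and 145 held under all 12 alternatives in which they were tested. Named genes that changed sign were Tnr (0.03, against -0.03 with upper quartile scaling, -0.05 with a mean of at least 5 CPM and -0.01 to 0.09 without 1 pool, lowest without pool 1) and Fshb (-2.20, against -4.42 to 1.78 without 1 pool, positive without pool 2). Neither passed. Inputs held fewer nuclear counts than outputs, so genes with low input levels were measured with less precision.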
